A study of Mus musculus with 8 samples.

Results

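Genes that move, store, carry or withhold iron in the liver were followed by name in a table of gene levels: Lcn2, Hamp, Slc40a1, Trf, Tfrc, Tfr2, Fth1, Ftl1, Hpx and Cp. The members were the rows of the deposited table that carry these 10 symbols, out of 47719 genes listed. Each symbol was found, and all 10 genes passed the filter on low values, which was a level of at least 1 FPKM in at least 2 libraries. FPKM counts sequenced fragments relative to the length of the transcript and to all mapped fragments, so levels can be set side by side between genes.

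Hepatocytes are a main storage site of iron and the main source of hepcidin, the small peptide hormone encoded by Hamp. Hepcidin binds ferroportin, the only known cellular iron exporter in mammals, which is encoded by Slc40a1, and has it degraded, so that iron stays inside cells and plasma iron falls. Iron stores raise Hamp transcription through bone morphogenetic protein (BMP) signalling, and inflammation raises it through interleukin 6 and STAT3. Lipocalin 2, from Lcn2, is an acute phase protein that binds the iron carriers (siderophores) of bacteria and so withholds iron from them.

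Liver RNA of wild type C57BL/6 mice was sequenced in 8 libraries. Of these, 4 came from day 2 after extended hepatectomy, an operation that takes out most of the liver, 2 from day 14 after it and 2 from normal control mice aged 10 weeks. The study tested encapsulated human proliferating hepatocyte organoids as a treatment of liver failure. According to its design text the mice of day 2 had received either eLO or, as controls, EMC, and the mice of day 14 eLO. No label places a day 2 library in either treatment, so day 2 is a group of mixed treatment. Surgery, treatment and time cannot be told apart in any comparison with normal control. Treatment and time cannot be told apart between day 14 and day 2 either. One title in the day 2 group, that of replicate 1, reads d1 while its age label gives day 2, and the title of replicate 3 alone adds TVR, which the labels do not explain. Whether libraries of 1 group stem from different mice is not stated, and each p-value measures the spread between these libraries only.

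Total FPKM was 762557, 1133922, 818159 and 686332 in day 2 replicates 1 to 4, 1298005 and 1050576 in day 14 replicates 1 and 2, and 717258 and 731451 in normal control. Both day 14 totals were thus above both controls, and levels were not rescaled to a common total in the main fit. In each library 10796 to 11197 genes reached 1 FPKM, and the number of reads behind these values is unknown. Hepatocyte markers were high in every library, with a summed level of 39420 to 65730 FPKM at day 2, 56690 and 60530 FPKM at day 14 and 48510 and 52010 FPKM in normal control. The day 2 group was uneven. The summed level of 8 genes of dividing cells was 3.53 and 2.195 FPKM in day 2 replicates 1 and 2 but 527 and 745 FPKM in day 2 replicates 3 and 4, against 10.2 and 12.8 FPKM at day 14 and 8.998 and 10.7 FPKM in normal control. For Hamp, Slc40a1, Fth1, Cp and Hpx the day 2 difference is therefore also given for either pair alone. For most other genes, Id1, Tmprss6, Hmox1, S100a8 and Atoh8 among them, no fit to either pair is given.

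At day 2, 9 of the 10 genes stood apart from normal control, 8 above it and Slc40a1 below it, with no overlap between the libraries of the groups. Among all 12340 genes tested 51.5% did not overlap in this comparison, 26.1% higher and 25.4% lower, so that separation alone is common. Lcn2, Trf and Ftl1 rose at day 2 in limma's moderated test with a Benjamini-Hochberg adjusted p under 0.05, the rule for a call throughout. These are 3 of 10 members, all higher, beside 21.2% of all genes called in either direction and 9.72% called higher. The median log2 change of the 10 genes was 1.18, and that of all genes tested was 0.05. Without normal control replicate 1 or 2 the number of genes called at day 2 was 96 and 92, against 2620 with all libraries, so most single calls given below were lost there, and those of Lcn2, Id1, Cebpd and Marco were not. Fits with 1 pair of day 2 libraries called more genes than that fit. At day 2 these were 3989 with replicates 1 and 2 alone and 3617 with replicates 3 and 4 alone. For day 14 against day 2 they were 2868 and 3564, against 1990 with all libraries. A pass in such a fit is therefore more common among all genes. In bulk liver a change in the share of cells and a change in RNA per cell cannot be told apart.

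At day 14 none of the 10 genes was called against normal control by limma, beside 9.79% of all genes, while 3 members, Hamp, Lcn2 and Ftl1, had an unadjusted p under 0.05, as had 29.8% of all genes. The libraries of the groups did not overlap for 6 members, 5 higher and 1 lower, beside 70.9% of all genes, 35.3% higher and 35.7% lower. The median log2 change was 0.44 for the 10 genes and 0.00 for all genes. Between day 14 and day 2 only Lcn2 was called, and it was lower at day 14, beside 16.1% of all genes called in either direction. In that comparison 5 members did not overlap, 1 higher and 4 lower, beside 41.6% of all genes, 21.2% higher and 20.4% lower. The comparisons share libraries, so their values are set side by side here and not counted as separate support.

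**Figure D1:**
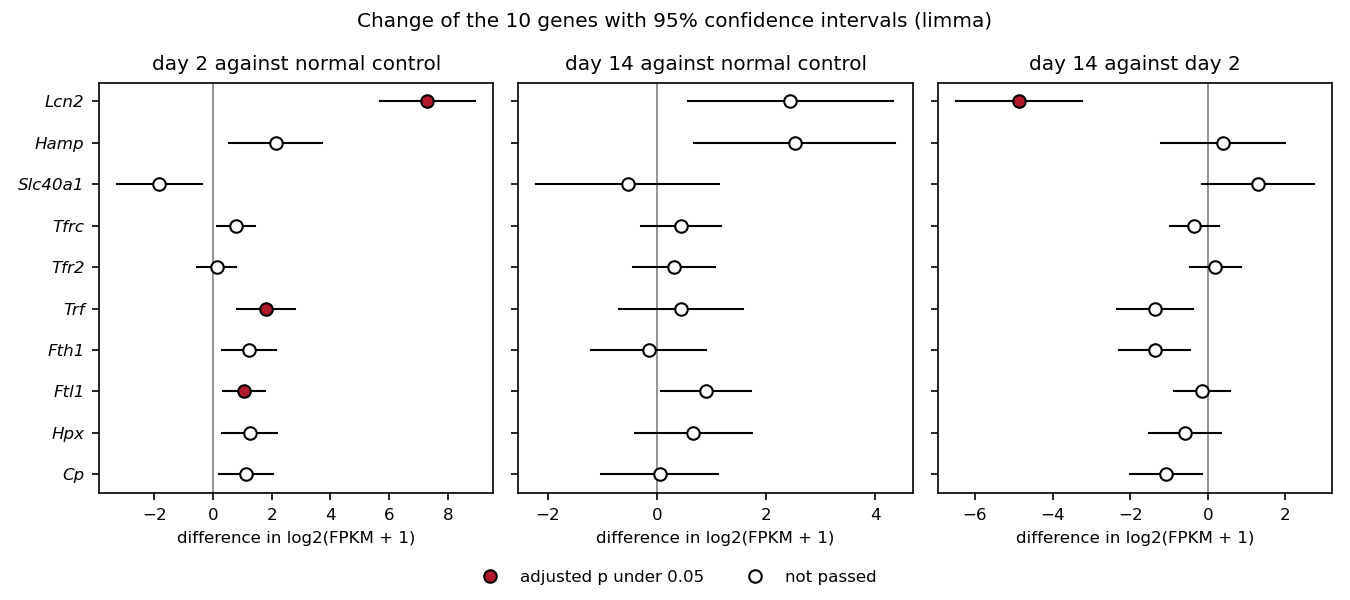
Change of the 10 genes in each of the 3 comparisons. The horizontal axis is the difference in log2(FPKM + 1) between group means from limma, points are estimates, bars are 95% confidence intervals, and filled points passed an adjusted p under 0.05. Lcn2 at 7.31, Trf at 1.80 and Ftl1 at 1.06 are filled for day 2 against normal control, none is filled for day 14 against normal control, and Lcn2 at -4.87 is filled for day 14 against day 2.

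Lcn2 lies on chromosome 2 of GRCm38 at 32384637 to 32387739. Its level was 5936, 5894, 3466 and 1854 FPKM in day 2 replicates 1 to 4, 58.4 and 296 FPKM in day 14 replicates 1 and 2, and 16.5 and 33.0 FPKM in normal control replicates 1 and 2. No group overlapped another: every day 2 library was above every day 14 library, and both of these were above both controls. By level it held ranks 19 to 49 among all genes in the day 2 libraries, ranks 1222 and 402 at day 14 and ranks 3331 and 1956 in the controls. Means were 4288 ± 1991 FPKM at day 2 (SD, n = 4), 177 ± 168 FPKM at day 14 (SD, n = 2) and 24.8 ± 11.7 FPKM in normal control (SD, n = 2).

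Lcn2 rose at day 2 by 7.31 ± 0.71 log2 units (SE; limma adjusted p = 0.00174), the largest change of any member. It was lower at day 14 than at day 2 (log2 change -4.87 ± 0.71; limma adjusted p = 0.0071). That call was lost without day 14 replicate 1, where the log2 change was -3.71 (limma adjusted p = 0.079). Against normal control the day 14 difference of 2.44 ± 0.82 did not pass (limma adjusted p = 0.0912). Both day 14 libraries were above the controls, but they lay far apart from each other.

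The receptors through which lipocalin 2 enters cells were scarce. Slc22a17, a lipocalin 2 receptor, reached at most 1.10 FPKM in any library, and Lrp2 (megalin) at most 0.27 FPKM, so neither was tested. Bdh2, an enzyme described in mice as making a mammalian siderophore, had 10.6, 6.15, 7.75 and 6.02 FPKM at day 2, 29.7 and 31.9 FPKM at day 14 and 15.1 and 14.4 FPKM in normal control. It fell at day 2 (log2 change -0.90 ± 0.25; limma adjusted p = 0.0361) and was higher at day 14 than at day 2 (log2 change 1.91 ± 0.25; limma adjusted p = 0.00509). The day 2 call was lost without day 2 replicate 4 (limma adjusted p = 0.067) or either control (limma adjusted p = 0.23 and 0.21), and the other without day 14 replicate 1 (limma adjusted p = 0.064). At day 2, when Lcn2 was highest, Bdh2 was lowest.

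Neutrophils carry lipocalin 2 in their granules, so their markers are given beside Lcn2. The summed level of 13 neutrophil genes was 148, 340, 90.0 and 34.6 FPKM in the day 2 libraries, 16.6 and 77.9 FPKM in the day 14 libraries and 4.41 and 8.27 FPKM in the controls. Of these genes 7 were tested, and S100a8, Retnlg and S100a9 rose at day 2, beside 9.72% of all genes. S100a8 had 42.5, 102, 27.4 and 11.7 FPKM at day 2, 4.07 and 25.0 FPKM at day 14 and 0.77 and 1.85 FPKM in normal control. The rise of S100a8 at day 2 was 3.99 log2 units (limma adjusted p = 0.017), lost without either control (limma adjusted p = 0.15 and 0.12). Of the 7 tested, 5 were above both controls in every day 2 library, beside 26.1% of all genes. However, Retnlg, Ngp, Mmp9, Csf3r and Stfa2l1 reached 1 FPKM only after hepatectomy. They passed the filter through libraries in which they were high, so neither count over the 7 genes supports anything. Ly6g, Elane and Mmp8, also on the list, stayed under 1 FPKM in all 8 libraries. Ly6g was highest in a control, at 0.74 FPKM. Mmp8 had 0.24 to 0.88 FPKM at day 2 and 0.03 and 0.03 FPKM in normal control. The granule genes Camp and Mpo, not tested, were highest in day 14 replicate 2, at 3.40 and 2.33 FPKM, and reached at most 0.42 and 0.79 FPKM at day 2. The part of neutrophils in the Lcn2 result was not tested.

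The 250 bases before the annotated start of Lcn2 are shown because inflammatory factors are known to act on this promoter. They are from RefSeq on GRCm38.p6, chr2:32387740-32387989 on the minus strand, written 5′ to 3′, and capitals mark matches to the C/EBP pattern TTGCNNAA and the NF-kB pattern GGGNNTNNC on either strand.
Lcn2 promoter: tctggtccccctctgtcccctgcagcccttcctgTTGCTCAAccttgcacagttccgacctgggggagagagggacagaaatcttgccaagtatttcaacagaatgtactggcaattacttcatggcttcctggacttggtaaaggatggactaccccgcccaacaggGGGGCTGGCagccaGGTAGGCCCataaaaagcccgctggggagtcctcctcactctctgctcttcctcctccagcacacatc
The C/EBP match stands 216 to 209 bases before the start, and the NF-kB matches stand 82 to 74 bases (forward) and 68 to 60 bases (reverse) before it, without overlap. Among 32851 such RefSeq windows, 9.56% hold the C/EBP pattern and 42.8% the NF-kB pattern, so the second is common by its letters alone. A match is a description of the letters and not a site shown to be bound.

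Over the 8 libraries the gene whose profile was most like that of Lcn2 was Saa2, an acute phase serum amyloid gene, followed by the metallothioneins Mt1 and Mt2, small metal-binding proteins. Likeness was the root mean square difference between profiles of log2(FPKM + 1), each centred on its own mean, over 6939 genes with a mean of at least 5 FPKM. It was 0.89 for Saa2, 1.09 for Mt1 and 1.22 for Mt2, against a spread of Lcn2 about its own mean of 3.26. Saa genes are close copies of each other, so the level of Saa2 is uncertain.

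**Figure D2:**
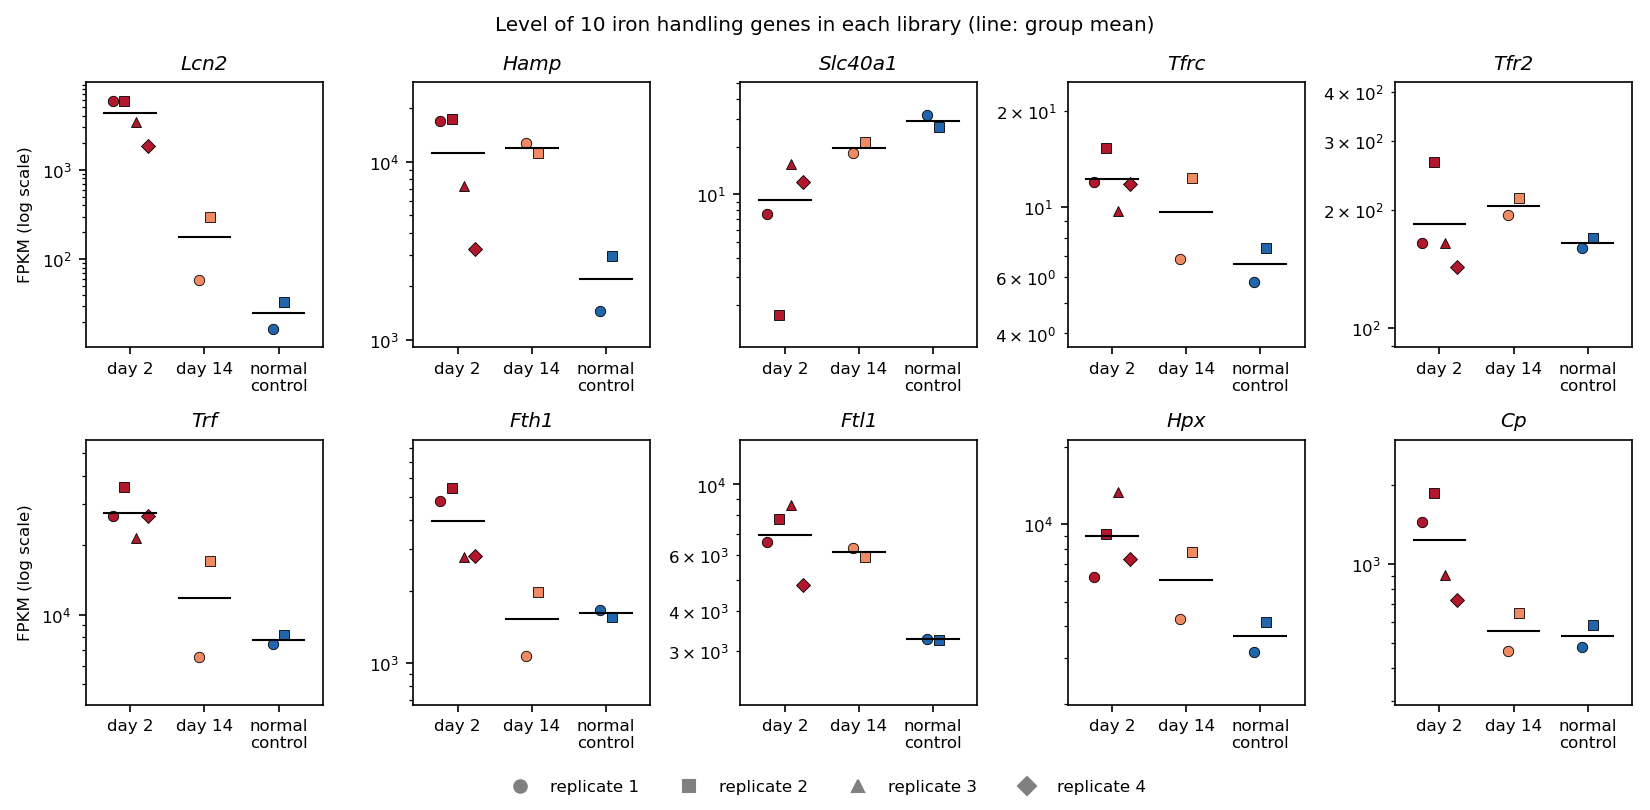
Level of each of the 10 genes in every library, on a logarithmic FPKM axis that differs between panels. Symbols mark replicates, lines mark group means, and the groups are day 2, day 14 and normal control. In the Lcn2 panel the day 2 libraries lie between 1854 and 5936 FPKM and the controls at 16.5 and 33.0 FPKM, and in the Slc40a1 panel the order is turned round, with the controls highest at 31.7 and 26.4 FPKM.

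Hamp, on chromosome 7 of GRCm38 at 30942368 to 30944029, was high after hepatectomy in most libraries. Its level was 16942, 17412, 7283 and 3217 FPKM in day 2 replicates 1 to 4, 12713 and 11186 FPKM in day 14 replicates 1 and 2, and 1453 and 2958 FPKM in normal control. All 6 libraries after hepatectomy were above both controls, but day 2 replicate 4 exceeded the higher control only slightly, and the day 2 and day 14 libraries overlapped. Means were 11210 ± 7086 FPKM at day 2 (SD, n = 4), 11950 ± 1079 FPKM at day 14 (SD, n = 2) and 2205 ± 1064 FPKM in normal control (SD, n = 2).

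The difference of Hamp from normal control did not pass at either time, at a log2 change of 2.14 ± 0.69 for day 2 (limma adjusted p = 0.0601) and 2.52 ± 0.80 for day 14 (limma adjusted p = 0.0795). The 95% confidence intervals were 0.55 to 3.72 for day 2 and 0.69 to 4.36 for day 14. Day 2 rested on its replicates: with replicates 1 and 2 alone Hamp passed (log2 change 3.05; limma adjusted p = 0.0038), and with replicates 3 and 4 alone it did not (log2 change 1.22; limma adjusted p = 0.11). It also passed at day 2 without replicate 4 alone (log2 change 2.64; limma adjusted p = 0.019). With only the libraries of day 14 and normal control in the fit, the day 14 difference passed as well (limma adjusted p = 0.018). That fit called 3239 genes, against 1208 with all libraries. The difference between day 14 and day 2 did not pass (log2 change 0.39 ± 0.69; 95% confidence interval -1.20 to 1.98; limma adjusted p = 0.717), and its sign turned under quantile scaling (log2 change -0.04) and without day 2 replicate 4 (log2 change -0.11).

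Hamp2 is a close copy of Hamp in the mouse, on chromosome 7 at 30922372 to 30924181, and its product is not known to lower iron as hepcidin does. It had 0.26, 1.94, 3.58 and 0.54 FPKM at day 2, 50.7 and 119 FPKM at day 14 and 40.9 and 19.9 FPKM in normal control. At day 2 all 4 libraries were far below both controls, while Hamp in the same libraries was above them. Hamp2 fell at day 2 (log2 change -3.71 ± 0.58; limma adjusted p = 0.00664) and was higher at day 14 than at day 2 (log2 change 5.12 ± 0.58; limma adjusted p = 0.0038). The day 2 call was lost without normal control replicate 1 (limma adjusted p = 0.086) or replicate 2 (limma adjusted p = 0.057), and the call of day 14 against day 2 without day 14 replicate 1 (limma adjusted p = 0.052). The annotated transcripts of Hamp and Hamp2 used here are identical at 388 of 437 aligned positions (88.8%), so reads may be divided between the copies and both levels are uncertain.

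The promoters of the 2 genes are shown because Hamp and Hamp2 stood on opposite sides of the controls at day 2. Both are the 250 bases before the start in RefSeq, GRCm38.p6, minus strand, chr7:30944030-30944279 for Hamp and chr7:30924182-30924431 for Hamp2. Capitals mark matches to GGCGCC (core of the BMP response element), TTCNNNGAA (STAT) and GGGNNTNNC (NF-kB), searched on both strands.
Hamp promoter: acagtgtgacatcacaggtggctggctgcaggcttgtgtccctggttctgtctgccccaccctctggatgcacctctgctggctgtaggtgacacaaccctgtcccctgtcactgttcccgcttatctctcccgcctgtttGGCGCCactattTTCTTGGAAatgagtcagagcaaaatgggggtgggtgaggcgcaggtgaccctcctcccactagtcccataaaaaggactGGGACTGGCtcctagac
Hamp2 promoter: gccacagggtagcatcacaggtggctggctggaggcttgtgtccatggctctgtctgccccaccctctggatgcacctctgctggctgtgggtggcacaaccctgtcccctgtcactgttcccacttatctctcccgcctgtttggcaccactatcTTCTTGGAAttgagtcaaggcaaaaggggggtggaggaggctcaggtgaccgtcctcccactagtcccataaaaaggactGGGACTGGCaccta
The windows are identical at 227 of 253 aligned positions (89.7%). In Hamp the BMP core stands 109 to 104 bases before the start, the STAT pattern 97 to 89 and the NF-kB pattern 17 to 9, with no overlap. Hamp2 holds the same STAT letters 94 to 86 bases and the same NF-kB letters 14 to 6 bases before its start, but not the BMP core, whose aligned bases carry the substitution G4A, counted from 1 at the first base of the core. Among all RefSeq windows, 9.59% hold the BMP core, 7.02% the STAT pattern and 42.8% the NF-kB pattern. No level was tested against these letters.

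Of 19 listed genes of hepcidin control, Hamp2 among them, 18 were tested. At day 2 Id1 was called higher and 7 were called lower, Hamp2 and Bmp6 included, beside 9.72% of all genes higher and 11.5% lower, and the median log2 change was -0.49. Smad6 and Smad7, also on the list, overlapped the controls at day 2 and were called in no comparison. Smad6 had 4.42, 2.45, 1.74 and 3.02 FPKM at day 2, 1.57 and 1.66 FPKM at day 14 and 2.32 and 1.98 FPKM in normal control. Smad7 had 4.82, 3.01, 1.73 and 2.79 FPKM at day 2, 5.05 and 4.18 FPKM at day 14 and 2.79 and 3.14 FPKM in normal control. BMP signalling itself was not tested. Id1, a transcriptional regulator that BMP signalling switches on together with Hamp, had 176, 220, 96.4 and 107 FPKM at day 2, 36.9 and 24.1 FPKM at day 14 and 2.98 and 2.79 FPKM in normal control. No group overlapped another, and Id1 rose at day 2 (log2 change 5.20 ± 0.37; limma adjusted p = 0.000899) and at day 14 (log2 change 2.99 ± 0.43; limma adjusted p = 0.02). The day 14 call of Id1 was lost without day 14 replicate 1 (limma adjusted p = 0.16) or without normal control replicate 1 (limma adjusted p = 0.16) or 2 (limma adjusted p = 0.20), while its day 2 call held without each library in turn. Id1 was also lower at day 14 than at day 2 (log2 change -2.21 ± 0.37; limma adjusted p = 0.0102), which did not pass without either day 14 library (limma adjusted p = 0.079 and 0.051).

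Bmp6, the BMP that iron loading induces in the liver, was low throughout, at 0.57, 0.41, 0.60 and 0.45 FPKM at day 2, 0.08 and 0.15 FPKM at day 14 and 1.53 and 1.49 FPKM in normal control. It reached 1 FPKM in the controls only and so passed the filter through the group in which it was high. For that reason its difference is given by its levels alone, and its lower calls at both times, which are in the counts of this list and of all further iron genes, support nothing. Bmp2, the other main BMP of hepcidin control, fell at day 14 (log2 change -1.35; limma adjusted p = 0.0442). That call was lost without any 1 of the 4 libraries compared. The summed level of 7 markers of sinusoidal endothelial cells was 67.8, 71.2, 49.2 and 86.8 FPKM at day 2. It was 41.8 and 53.4 FPKM at day 14 and 93.8 and 87.6 FPKM in normal control. Against normal control 1 marker was called lower at day 2, beside 11.5% of all genes, and 2 at day 14, beside 4.58%. None was called higher. Stab1 made up most of the sum in day 2 replicates 1 and 2. It had 37.7, 53.4, 9.83 and 21.3 FPKM at day 2, 20.5 and 12.7 FPKM at day 14 and 9.33 and 9.42 FPKM in normal control. At day 2 Stab1 was the only 1 of the 7 markers with an estimate above 0. In that comparison 3 of the 7 were below both controls in every day 2 library, beside 25.4% of all genes. The part of endothelial cells in the Bmp2 and Bmp6 values was not tested.

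Tmprss6, a hepatocyte protease that restrains hepcidin by cleaving the BMP co-receptor hemojuvelin, had 35.5, 33.6, 90.7 and 54.7 FPKM at day 2, 58.0 and 72.5 FPKM at day 14 and 138 and 149 FPKM in normal control. It fell at day 2 (log2 change -1.52 ± 0.40; limma adjusted p = 0.0314), a call lost without day 2 replicate 1 (limma adjusted p = 0.065) or either control (limma adjusted p = 0.18 and 0.20). Its day 14 value of -1.13 did not pass (limma adjusted p = 0.141), although both libraries were below both controls. The other genes of the list that fell at day 2 were Bmpr2, Neo1, Bmpr1a and Acvr1, of which Bmpr1a, Bmpr2 and Acvr1 encode BMP receptors and Neo1 encodes neogenin, a partner of hemojuvelin. Their log2 changes were between -0.86 and -0.64. All 4 of these calls were lost when each library's trend with length and GC content was removed, at limma adjusted p values of 0.13 to 0.60, and without either control, at 0.15 to 0.29. Those of Bmpr1a, Neo1 and Acvr1 were also lost without day 2 replicate 1 (limma adjusted p = 0.06 to 0.10) or 4 (limma adjusted p = 0.052 to 0.086).

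Atoh8, a transcription factor linked to Hamp and named here after its values were seen, showed the split of the day 2 group. It had 25.3, 26.2, 5.57 and 6.17 FPKM in day 2 replicates 1 to 4, 12.6 and 9.92 FPKM at day 14 and 6.31 and 11.3 FPKM in normal control, and was not called. Day 2 replicates 1 and 2, the libraries with the highest Hamp, were also the highest for Atoh8.

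**Figure D3:**
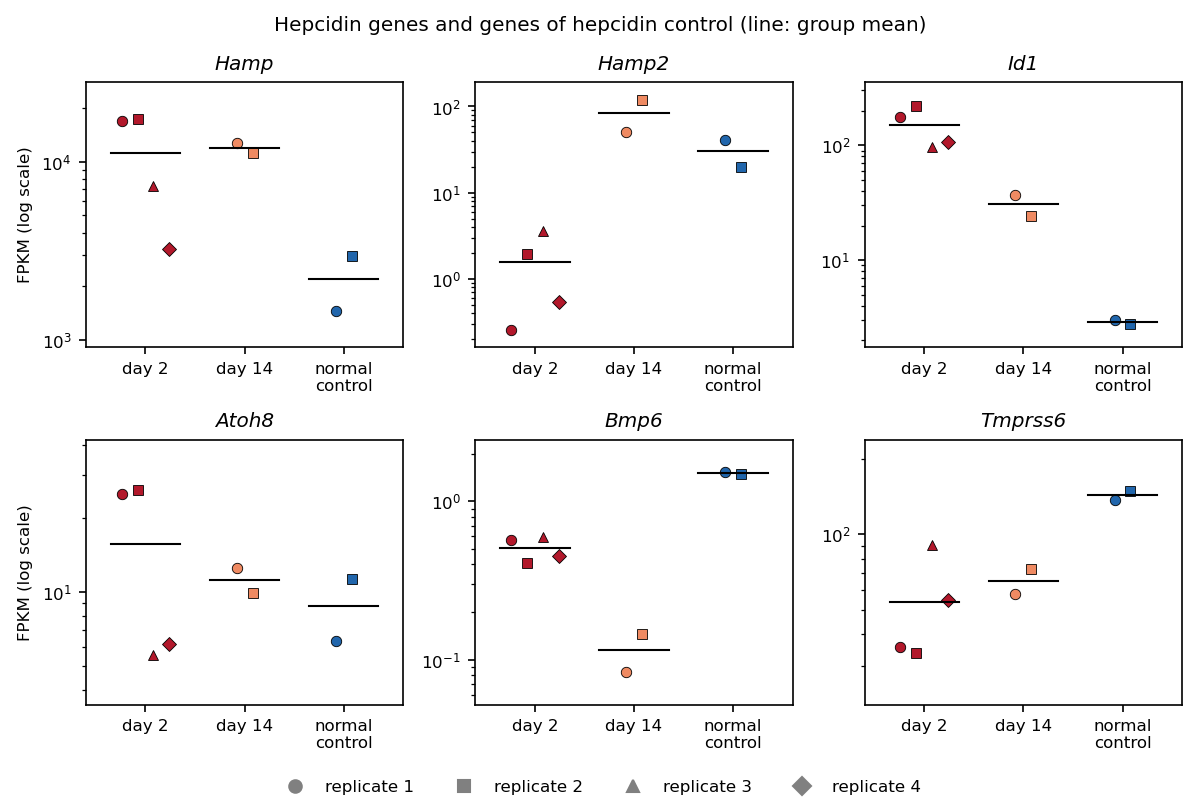
Level of Hamp, its copy Hamp2 and 4 genes of hepcidin control in every library, on logarithmic FPKM axes that differ between panels, with lines at group means. Hamp2 lies at 0.26 to 3.58 FPKM in the day 2 libraries and at 19.9 and 40.9 FPKM in the controls, while Id1 lies at 96.4 to 220 FPKM in the day 2 libraries and at 2.79 and 2.98 FPKM in the controls.

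Inflammatory signals that act on Hamp and Lcn2 were also followed, as a list of 10 genes of which 9 were tested. At day 2, 3 were called higher and 1 lower, beside 9.72% and 11.5% of all genes. At day 14, 3 were called higher and 1 lower, beside 5.21% and 4.58%. Stat3, Il6ra, Il1b and Nfkbia were called in no comparison. Stat3 had 30.7, 68.0, 52.3 and 30.1 FPKM at day 2, 14.7 and 22.8 FPKM at day 14 and 35.1 and 53.6 FPKM in normal control. Socs3, a feedback inhibitor that STAT3 induces, rose at day 2 (log2 change 3.13 ± 0.57; limma adjusted p = 0.0103), with 27.1, 71.7, 48.1 and 12.8 FPKM at day 2, 10.4 and 10.7 FPKM at day 14 and 2.64 and 3.22 FPKM in normal control. Cebpd, a transcription factor of the acute phase, had 35.7, 39.1, 35.9 and 30.2 FPKM at day 2, 12.9 and 12.9 FPKM at day 14 and 4.42 and 6.74 FPKM in normal control. Cebpd rose at day 2 (log2 change 2.48 ± 0.22; limma adjusted p = 0.00163) and at day 14 (log2 change 1.10 ± 0.25; limma adjusted p = 0.0379), and was lower at day 14 than at day 2 (log2 change -1.38 ± 0.22; limma adjusted p = 0.00879, and 0.091 without day 14 replicate 1). Nfkbiz, a co-regulator of NF-kB targets that include Lcn2, rose at day 2 (log2 change 1.79) and day 14 (log2 change 1.66). Il6st, the shared receptor chain of the interleukin 6 family, fell at day 2 (log2 change -0.86) and day 14 (log2 change -1.58), and Cebpb, a relative of Cebpd, rose at day 14 (log2 change 2.26). Without either control the day 2 calls of Socs3, Nfkbiz and Il6st were lost (limma adjusted p = 0.098 to 0.35), that of Il6st also without any day 2 library (limma adjusted p = 0.051 to 0.075), and each day 14 call of this list was lost without at least 1 library (limma adjusted p up to 0.26). Il6 itself reached at most 0.29 FPKM and was not tested. Socs3 and Cebpd were above both controls in all 4 day 2 libraries and did not show the split of Hamp, since replicate 3 was as high as replicate 1 or higher.

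The genes whose profiles over the 8 libraries were most like that of Hamp were Scand1, Bola2 and Mroh1, at differences of 0.46, 0.53 and 0.57 against an own spread of 1.25, by the measure used for Lcn2. Scand1 had 74.3, 99.9, 36.6 and 34.1 FPKM at day 2, 67.1 and 58.0 FPKM at day 14 and 14.0 and 14.3 FPKM in normal control. Day 2 replicates 1 and 2 were above replicates 3 and 4 here as for Hamp, and day 14 lay between them.

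Slc40a1, on chromosome 1 at 45908070 to 45926532, was the only member whose libraries were all below the controls at both times. Its level was 7.50, 1.74, 15.6 and 12.03 FPKM in day 2 replicates 1 to 4, 18.2 and 21.2 FPKM at day 14 and 31.7 and 26.4 FPKM in normal control. The order of levels was day 2, day 14 and normal control, lowest first, and no neighbours in that order overlapped. Means were 9.23 ± 6.00 FPKM at day 2 (SD, n = 4), 19.7 ± 2.18 FPKM at day 14 (SD, n = 2) and 29.1 ± 3.68 FPKM in normal control (SD, n = 2).

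The day 2 difference of Slc40a1 did not pass with all libraries (log2 change -1.83 ± 0.63; limma adjusted p = 0.0714). It passed without day 2 replicate 2, the lowest library (log2 change -1.29; limma adjusted p = 0.025), without replicate 3 (log2 change -2.15; limma adjusted p = 0.035), with replicates 3 and 4 alone (log2 change -1.02; limma adjusted p = 0.017) and with replicates 1 and 2 alone (log2 change -2.63; limma adjusted p = 0.0079). At day 14 the log2 change against normal control was -0.54 ± 0.73 (limma adjusted p = 0.672), and against day 2 it was 1.29 ± 0.63 (limma adjusted p = 0.187), which passed against day 2 replicates 1 and 2 alone (log2 change 2.096; limma adjusted p = 0.022) and not against replicates 3 and 4 alone (log2 change 0.49; limma adjusted p = 0.14). Macrophages of the liver also express ferroportin strongly. The summed level of 11 Kupffer cell and macrophage markers was 201, 249, 205 and 285 FPKM at day 2, 81.1 and 90.0 FPKM at day 14 and 198 and 167 FPKM in normal control. Marco, a scavenger receptor, carried the day 2 difference in this sum, at 35.5, 80.4, 33.4 and 51.0 FPKM at day 2, 4.36 and 6.08 FPKM at day 14 and 2.38 and 1.82 FPKM in normal control. Without Marco the sum was 166, 169, 172 and 234 FPKM at day 2, 76.8 and 83.9 FPKM at day 14 and 195 and 165 FPKM in normal control. At day 2 Marco was called higher and Adgre1 and Csf1r lower, beside 9.72% and 11.5% of all genes, with a median log2 change of -0.20 over the 11 markers, and the calls of Adgre1 and Csf1r were lost without day 2 replicate 1 or either control (limma adjusted p = 0.051 to 0.25). At day 14 none was called higher and 6 were called lower, beside 4.58% of all genes, with a median of -1.21, and each of these 6 was lost without day 14 replicate 1 or either control (limma adjusted p = 0.14 to 0.25). The part of macrophage number in the Slc40a1 values was not tested.

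Trf encodes transferrin, the plasma carrier of iron, which the liver secretes. On chromosome 9 at 103208876 to 103230286, it was among the most abundant genes, with ranks 2, 4, 2 and 1 in the day 2 libraries, 26 and 11 at day 14 and 14 and 12 in normal control. Its level was 26874, 35735, 21391 and 26738 FPKM in day 2 replicates 1 to 4, 6537 and 17092 FPKM in day 14 replicates 1 and 2, and 7453 and 8148 FPKM in normal control. Every day 2 library was above every library of the other groups, whereas the day 14 libraries lay on both sides of the controls.

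Trf rose at day 2, with means of 27680 ± 5943 FPKM at day 2 (SD, n = 4) and 7801 ± 491 FPKM in normal control (SD, n = 2) and a log2 change of 1.80 ± 0.43 (limma adjusted p = 0.0235). That call was lost without normal control replicate 1 (log2 change 1.74; limma adjusted p = 0.18) or replicate 2 (log2 change 1.87; limma adjusted p = 0.16), and with no filter on low values (limma adjusted p = 0.25). The day 14 mean was 11810 ± 7464 FPKM (SD, n = 2), with a log2 change of 0.44 ± 0.49 against normal control (limma adjusted p = 0.598) and -1.36 ± 0.43 against day 2 (limma adjusted p = 0.0629). The last of these passed without day 14 replicate 2 (log2 change -2.06; limma adjusted p = 0.031). The sign of the day 14 difference from normal control turned without day 14 replicate 2 (log2 change -0.25) and under quantile scaling (log2 change -0.40).

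Tfrc, on chromosome 16 at 32608896 to 32632794, encodes transferrin receptor 1, which brings transferrin-bound iron into cells. It had 11.97, 15.3, 9.65 and 11.8 FPKM at day 2, 6.85 and 12.3 FPKM at day 14 and 5.79 and 7.41 FPKM in normal control. The day 2 libraries were all above the controls, and the day 14 libraries overlapped with both groups. The log2 change was 0.78 ± 0.28 at day 2 (limma adjusted p = 0.0766) and 0.44 ± 0.32 at day 14 (limma adjusted p = 0.401), and -0.35 ± 0.28 for day 14 against day 2 (limma adjusted p = 0.402). With the trend of length and GC removed the day 2 difference of this long transcript passed (log2 change 1.33; limma adjusted p = 0.027). The genes with profiles most like that of Tfrc were Gabarap, Sra1 and Smn1, at differences of 0.12, 0.13 and 0.13 against an own spread of 0.41.

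Tfr2, on chromosome 5 at 137569822 to 137588081, encodes transferrin receptor 2, a hepatocyte sensor of transferrin saturation that takes part in hepcidin control. It had 165, 265, 165 and 143 FPKM at day 2, 195 and 215 FPKM at day 14 and 160 and 170 FPKM in normal control. It was the member with the smallest day 2 difference, and its day 2 libraries lay on both sides of the controls. The log2 change was 0.12 ± 0.28 at day 2 (95% confidence interval -0.53 to 0.77; limma adjusted p = 0.782), 0.31 ± 0.33 at day 14 (limma adjusted p = 0.571) and 0.19 ± 0.28 for day 14 against day 2 (limma adjusted p = 0.66). In FPKM, Tfr2 stood far above Tfrc in every library.

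Of 14 listed iron transport genes 10 were tested. Slc11a2 was the only one called at day 2, lower, beside 11.5% of all genes, and 2 were called lower at day 14, beside 4.58%. Slc11a2 encodes the divalent metal transporter that carries iron out of endosomes, and had 6.60, 6.43, 9.48 and 7.37 FPKM at day 2, 6.89 and 7.87 FPKM at day 14 and 15.1 and 17.3 FPKM in normal control. It fell at day 2 (log2 change -1.03 ± 0.21; limma adjusted p = 0.0148), a call lost without either control (limma adjusted p = 0.12 and 0.17), and at day 14 (log2 change -1.04 ± 0.25; limma adjusted p = 0.0408). Slc39a8, a metal importer of the ZIP family, fell at day 14 (log2 change -1.84; limma adjusted p = 0.0346). Both day 14 calls were lost without any 1 of the 4 libraries of that comparison (limma adjusted p = 0.06 to 0.27). For day 14 against day 2, Mcoln1, a lysosomal cation channel, was higher (log2 change 0.67; limma adjusted p = 0.043) and Slc11a1, a metal transporter of macrophage phagosomes, was lower (log2 change -1.06; limma adjusted p = 0.0207), beside 9.09% and 7.03% of all genes. The call of Mcoln1 was lost without day 2 replicate 1, 3 or 4 or either day 14 library (limma adjusted p = 0.071 to 0.21) and that of Slc11a1 without either day 14 library (limma adjusted p = 0.17 and 0.065).

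Ferritin, the iron storage shell, is built from a heavy chain with ferroxidase activity, from Fth1, and a light chain, from Ftl1. Fth1, on chromosome 19 at 9980600 to 9985111, had 4782, 5418, 2783 and 2824 FPKM in day 2 replicates 1 to 4, 1069 and 1982 FPKM at day 14 and 1674 and 1557 FPKM in normal control. Ftl1, on chromosome 7 at 45457944 to 45459886, had 6583, 7816, 8636 and 4818 FPKM at day 2, 6323 and 5921 FPKM at day 14 and 3282 and 3260 FPKM in normal control. Both chains were above the controls in all day 2 libraries, but at day 14 only Ftl1 was, and Fth1 lay on both sides of the controls.

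Ftl1 rose at day 2 (log2 change 1.06 ± 0.31; limma adjusted p = 0.046), with means of 6963 ± 1661 FPKM at day 2 (SD, n = 4) and 3271 ± 15.5 FPKM in normal control (SD, n = 2). This call was the least firm of the 3. It was lost under removal of the length and GC trend (log2 change 0.41; limma adjusted p = 0.39), without day 2 replicate 1, 2 or 3 (limma adjusted p = 0.058 to 0.081), with day 2 replicates 3 and 4 alone (log2 change 0.98; limma adjusted p = 0.081), and without either control (limma adjusted p = 0.24 and 0.25). Its day 14 difference of 0.90 ± 0.36 did not pass (limma adjusted p = 0.138).

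Fth1 did not pass at day 2 (log2 change 1.23 ± 0.40; limma adjusted p = 0.0608) or for day 14 against day 2 (log2 change -1.38 ± 0.40; limma adjusted p = 0.0513), both of which passed without day 2 replicate 3 (log2 change 1.37 and -1.52; limma adjusted p = 0.048 for each). Both also passed with day 2 replicates 1 and 2 alone (log2 change 1.66 and -1.80; limma adjusted p = 0.019 and 0.018), and neither did with replicates 3 and 4 alone (log2 change 0.80 and -0.94; limma adjusted p = 0.13 and 0.084). At day 14 its log2 change against normal control was -0.15 ± 0.46 (limma adjusted p = 0.872). The ratio of the Fth1 level to the Ftl1 level was 0.73, 0.69, 0.32 and 0.59 at day 2, 0.17 and 0.33 at day 14 and 0.51 and 0.48 in normal control. It was lower in both day 14 libraries than in both controls, while the day 2 libraries lay on both sides. Ferritin genes have many processed copies in the genome that can share reads, so their levels are uncertain.

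Iron responsive elements are short hairpins in messenger RNA that the iron regulatory proteins bind when iron is scarce. One in the 5′ UTR blocks translation, and those in the 3′ UTR of Tfrc protect the message from decay. They are shown because 4 of the 10 genes carry one and because control through a 5′ element acts on protein output, which gene levels do not measure. Each was found in GENCODE M21 transcripts on GRCm38 as a hexaloop CAGTGN on a stem of 5 pairs with a bulged C below it, and capitals mark the bulged C and the loop.
Slc40a1 5′ UTR, chr1:45925465-45925494, minus strand: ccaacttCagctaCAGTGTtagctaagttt
Ftl1 5′ UTR, chr7:45459779-45459808, minus strand: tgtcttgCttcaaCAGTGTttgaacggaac
Fth1 5′ UTR, chr19:9982731-9982760, plus strand: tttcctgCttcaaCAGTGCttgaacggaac
Tfrc 3′ UTR, chr16:32631218-32631247, plus strand: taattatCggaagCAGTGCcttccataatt
Tfrc 3′ UTR, chr16:32631597-32631626, plus strand: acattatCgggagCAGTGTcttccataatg
Tfrc 3′ UTR, chr16:32631662-32631691, plus strand: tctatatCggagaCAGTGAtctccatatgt
Tfrc 3′ UTR, chr16:32631709-32631738, plus strand: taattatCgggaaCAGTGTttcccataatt
Such a hairpin was found in 85 of 21901 coding transcripts searched (0.388%). Of the 3 genes with a 5′ element, both ferritin chains were above the controls in all day 2 libraries and Slc40a1 was below them. Only Ftl1 was called there, and control through these elements was not tested.

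Of 7 listed genes that sense iron, store it or release it from ferritin 6 were tested, and Pcbp1 rose at day 2 while Ncoa4 and Ireb2 fell, beside 9.72% of all genes higher and 11.5% lower. Ncoa4, the receptor that delivers ferritin for breakdown in lysosomes, had 7.18, 3.56, 15.96 and 7.58 FPKM at day 2, 6.27 and 6.69 FPKM at day 14 and 35.9 and 55.8 FPKM in normal control. It fell at day 2 (log2 change -2.41 ± 0.46; limma adjusted p = 0.0116) and at day 14 (log2 change -2.61 ± 0.53; limma adjusted p = 0.032), and every library after hepatectomy was below both controls. Each of these calls was lost without either control, at limma adjusted p values of 0.085 and 0.13 for day 2 and of 0.19 and 0.24 for day 14, and the day 14 call also without either day 14 library, at 0.18 and 0.072.

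Ireb2, which encodes iron regulatory protein 2, had 5.38, 8.44, 8.80 and 5.95 FPKM at day 2, 14.2 and 11.2 FPKM at day 14 and 19.4 and 20.5 FPKM in normal control. It fell at day 2 (log2 change -1.39 ± 0.24; limma adjusted p = 0.00945), a call lost under removal of the length and GC trend (limma adjusted p = 0.064) and without either control (limma adjusted p = 0.10 and 0.12). No groups overlapped for Ireb2, and day 14 lay between day 2 and normal control. Pcbp1, an iron chaperone that loads ferritin, rose at day 2 (log2 change 0.88; limma adjusted p = 0.0454), a call lost without day 2 replicate 1 or 4 or either control (limma adjusted p = 0.084 to 0.26).

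Cp, on chromosome 3 at 19956933 to 20009750, encodes ceruloplasmin, the plasma copper protein that oxidises iron as it leaves cells. It had 1448, 1861, 908 and 725 FPKM in day 2 replicates 1 to 4, 464 and 648 FPKM at day 14 and 480 and 584 FPKM in normal control. All day 2 libraries were above all others, and the day 14 libraries lay on both sides of the controls. The log2 change was 1.12 ± 0.41 at day 2 (limma adjusted p = 0.0825), 0.05 ± 0.47 at day 14 (limma adjusted p = 0.962) and -1.07 ± 0.41 for day 14 against day 2 (limma adjusted p = 0.104). With day 2 replicates 1 and 2 alone the day 2 difference passed (log2 change 1.63; limma adjusted p = 0.01), and with replicates 3 and 4 alone it did not (log2 change 0.61; limma adjusted p = 0.16). It also passed without replicate 4 (log2 change 1.35; limma adjusted p = 0.048) and with the length and GC trend removed (log2 change 1.6; limma adjusted p = 0.044). The day 14 difference from normal control changed sign without day 14 replicate 2 (log2 change -0.19), without normal control replicate 1 (log2 change -0.09) and under quantile scaling (log2 change -0.35).

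Hpx, on chromosome 7 at 105591611 to 105600116, encodes hemopexin, the plasma protein that carries free haem to the liver. It had 6260, 9196, 13373 and 7323 FPKM at day 2, 4280 and 7832 FPKM at day 14 and 3174 and 4168 FPKM in normal control. All libraries after hepatectomy were above both controls, the lower day 14 library by a small margin, and day 2 and day 14 overlapped. The log2 change was 1.25 ± 0.41 at day 2 (limma adjusted p = 0.0602), 0.67 ± 0.47 at day 14 (limma adjusted p = 0.378) and -0.58 ± 0.41 for day 14 against day 2 (limma adjusted p = 0.341). The day 2 difference passed with day 2 replicates 3 and 4 alone (log2 change 1.44; limma adjusted p = 0.049) and not with replicates 1 and 2 alone (log2 change 1.06; limma adjusted p = 0.11). Hpx was highest in day 2 replicate 3, where Hamp and Cp were not.

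Of 12 further genes that scavenge or break down haem all were tested, and Hp and Hmox1 rose at day 2 while Abcg2 fell. These are 3 of 12, beside 21.2% of all genes called in either direction. For day 14 against day 2, 1 gene was called higher and 2 lower, beside 9.09% and 7.03% of all genes. Abcg2 was the higher one (log2 change 0.87; limma adjusted p = 0.0287), and its day 2 fall was -1.14 log2 units (limma adjusted p = 0.0101). The first call of Abcg2 was lost without day 14 replicate 1, and the second without either control. Hp, the plasma scavenger of free haemoglobin called haptoglobin, had 11687, 15344, 8593 and 8098 FPKM at day 2, 4779 and 7344 FPKM at day 14 and 2428 and 3687 FPKM in normal control. Hp rose at day 2 (log2 change 1.82 ± 0.38; limma adjusted p = 0.0157), a call lost without normal control replicate 1 (limma adjusted p = 0.17) or 2 (limma adjusted p = 0.10) and with no filter (limma adjusted p = 0.11). The groups did not overlap for Hp, with day 2 highest and normal control lowest.

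Hmox1, haem oxygenase 1, which frees iron from haem, had 62.4, 34.2, 21.4 and 25.7 FPKM at day 2, 12.1 and 10.8 FPKM at day 14 and 8.80 and 9.84 FPKM in normal control. It rose at day 2 (log2 change 1.72 ± 0.39; limma adjusted p = 0.0199) and was lower at day 14 than at day 2 (log2 change -1.45 ± 0.39; limma adjusted p = 0.0409). The day 2 call was lost without either control (limma adjusted p = 0.16 and 0.14), and that of day 14 against day 2 without day 2 replicate 2 (limma adjusted p = 0.053) or either day 14 library (limma adjusted p = 0.22 and 0.14). Slc48a1, a haem transporter, was lower at day 14 than at day 2 (log2 change -1.75; limma adjusted p = 0.0335), a call lost without day 2 replicate 1 or 3 or either day 14 library (limma adjusted p = 0.051 to 0.27).

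Red cell genes are given beside these values. The summed level of 12 erythroid genes was 499, 1709, 371 and 742 FPKM at day 2, 2769 and 1269 FPKM at day 14 and 429 and 353 FPKM in normal control. The highest sums were those of both day 14 libraries and of day 2 replicate 2, and 4 globin genes carried most of each sum, at 488, 1690, 355 and 719 FPKM at day 2, 2629 and 1120 FPKM at day 14 and 354 and 275 FPKM in normal control. Hba-a1 and Hba-a2 were called higher at day 14, 2 of 6 erythroid genes tested, beside 5.21% of all genes, and both calls were lost without any 1 of the 4 libraries compared (limma adjusted p = 0.06 to 0.26). Alas2, the first enzyme of haem synthesis in red cell precursors, was lower than in the controls at day 2, with 10.1, 17.7, 15.3 and 21.4 FPKM at day 2, 138 and 146 FPKM at day 14 and 73.1 and 76.6 FPKM in normal control (log2 change -2.19 ± 0.29 for day 2 against normal control; limma adjusted p = 0.00386, and 0.063 and 0.067 without either control). Gata1 and Rhag were at 0 in all 8 libraries. The part of red cell RNA in these values was not tested.

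In all, 75 further genes of iron biology were found in the table and 67 were tested. At day 2, 7 were called higher and 13 lower, with a median log2 change of 0.02. At day 14, 1 was called higher and 6 lower, with a median of -0.15, and for day 14 against day 2, 6 were higher and 7 lower, with a median of -0.08. As shares of the genes tested, 10.4% were higher and 19.4% lower at day 2, beside 9.72% and 11.5% of all genes. For day 14 against normal control 1.49% were higher and 8.96% lower, beside 5.21% and 4.58% of all genes, and for day 14 against day 2 8.96% were higher and 10.4% lower, beside 9.09% and 7.03% of all genes.

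**Figure D4:**
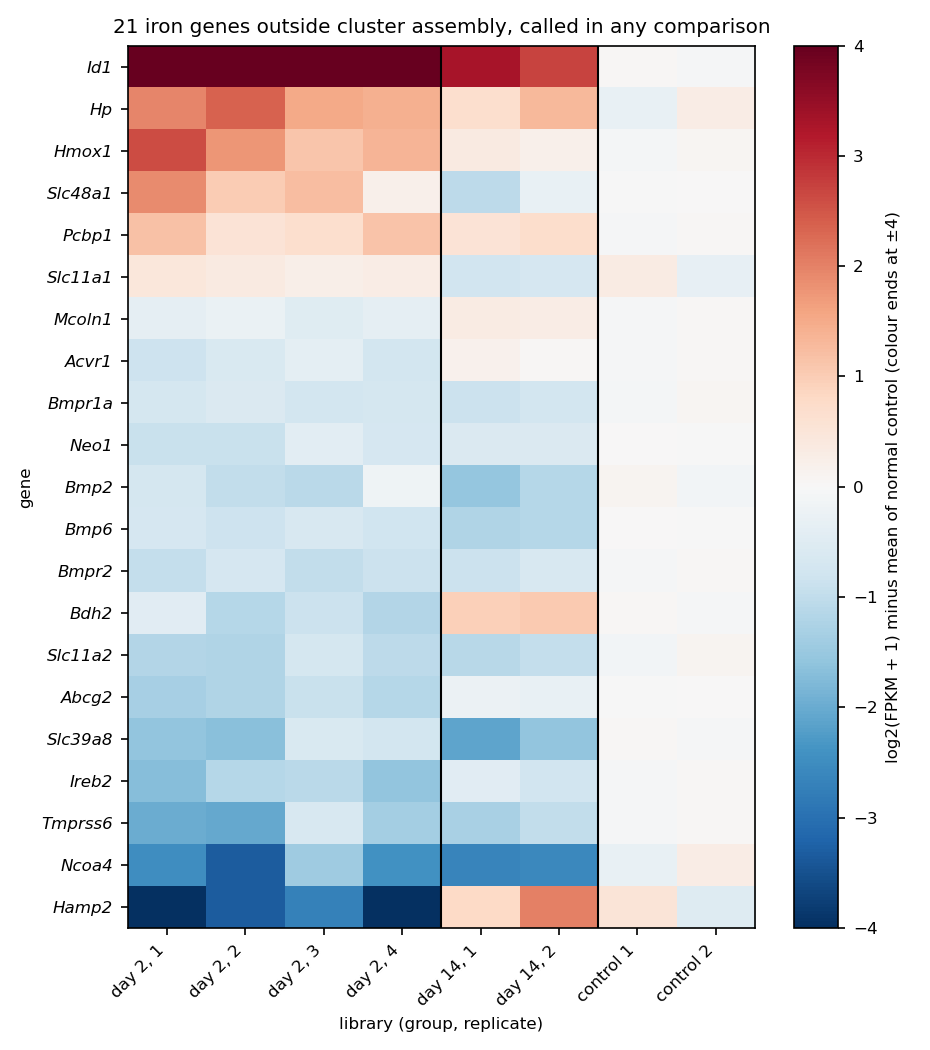
Heat map of the 21 further iron genes called in any comparison, those of iron-sulfur cluster assembly left out, with genes in rows and the 8 libraries in columns ordered as day 2, day 14 and normal control. Colour gives log2(FPKM + 1) minus the mean of the controls, red above and blue below, and ends at 4 units in either direction. Id1 is deep red in all 4 day 2 libraries, and Hamp2 is deep blue at day 2 and red at day 14.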

How the data were processed

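The authors deposited 1 table of gene levels in FPKM, with a column for each of the 8 libraries. Per the submitters' processing notes HISAT2 2.10, Cufflinks 2.2.1, HTSeq and DESeq2 were used with GRCm38 and mm9. Which step made the table is not given in the sources used here, nor is whether libraries were scaled to each other. Per the labels' protocols, RNA was taken with Trizol and libraries were made with an Illumina TruSeq kit. FPKM carries no read depth, so no counting interval was computed.

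The groups were taken from the labels as day 2 (4), day 14 (2) and normal control (2). Levels were put on the scale log2(FPKM + 1), and the 12340 genes that reached 1 FPKM in 2 or more libraries entered 1 limma fit of 3 group means (limma 3.58.1, R 4.3.3; variance trend on; residual degrees of freedom 5, prior 3.23). Adjustment was by Benjamini-Hochberg over all genes tested within a comparison. The pseudocount of 1 understates fold changes of low genes. The code of the fit was checked on simulated data with large planted changes, which does not measure how reliable the calls above are. For 27 genes whose symbols a spreadsheet had made into dates, the symbol was restored by identifier.

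Members, lists and sequences were chosen with earlier results of these data known. All members are named. From the lists of hepcidin control, iron sensing and storage, iron transport, haem scavenging, siderophore handling, iron-sulfur assembly and acute phase signals, a gene called in a comparison could be named, at most the 5 of largest change in that comparison, and for Lcn2, Hamp and Tfrc the 3 genes of most similar profile. Neo1, Atoh8, Smad6, Smad7, Slc22a17, Lrp2, Il6, Il1b, Il6ra, Stat3, Nfkbia and the named marker genes of other cell types were chosen outside this rule after their values were seen. Loci and transcripts are from GENCODE M21 on GRCm38. Promoters are from RefSeq on GRCm38.p6, where 8 members matched and Trf and Slc40a1 did not. The 3 lower pairs required of an iron responsive element were set after matches were seen.

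As alternatives the pseudocount was 0.1, the filter was dropped or raised to 5 FPKM, levels were scaled by median ratio or by quantiles, the fit held the compared groups only or had no variance trend, each library's dependence on length and GC content was taken out with splines of 4 degrees of freedom, and each library was left out. Leaving out day 2 replicates 1 and 2, or 3 and 4, was added after the data were seen. The day 2 treatments could not be compared, for want of a label. Plots are from matplotlib 3.10.9 (Python 3.11.15).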

Additional observations from a re-analysis of the deposited data

Results flagged for a closer look

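The change of Lcn2 after hepatectomy differed between the day 14 and day 2 groups, which may also differ in treatment. The effect at day 14 minus that at day 2, both against normal control, was -4.87 log2 units (limma adjusted p = 0.0071 for the direct comparison of the times, and 0.079 without day 14 replicate 1), and Lcn2 was lower in both day 14 libraries than in all 4 day 2 libraries.

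The day 2 group was screened for 43 genes, which were the members and the listed genes of iron biology and acute phase signals called in any comparison. Of these, 2 had 1 library apart from the other 3 when set against the range of the group. For Bmpr1a the gap between the highest day 2 library and its neighbour was 0.94 of the range of the group, and for Nubp1, a scaffold factor of cytosolic iron-sulfur clusters, it was 0.90 of the range, both above Dixon's 95% limit for 4 samples. The day 2 levels of Bmpr1a were 3.52, 3.93, 3.49 and 3.52 FPKM in replicates 1 to 4, so its gap was small in FPKM. Chance flags about 1 in 20 groups, and 43 genes were screened here.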

How the results depend on the processing

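The number of genes called was the result that depended most on the settings. For day 2 against normal control it was 2620, and 1609 after removal of the trend with length and GC content and 3989 without day 2 replicates 3 and 4. Among the iron genes 23 were called, and 14 with no filter and 13 with the trend removed. For day 14 against normal control 1208 genes were called, and 691 with no filter, 3239 with only the 2 compared groups and 381 with the trend removed. Among the iron genes these counts were 7, and 2, 22 and 2 in the same order. For day 14 against day 2 there were 1990 calls, and 996 with only the 2 compared groups and 3564 without day 2 replicates 1 and 2, and among the iron genes 14, and 9 with only the 2 compared groups. With 1 library left out the counts ran, in the order day 2 and day 14 against normal control and day 14 against day 2, over 92 to 2971, 0 to 662 and 17 to 2472 for all genes, and 2 to 27, 0 to 3 and 0 to 17 for iron genes. The lowest counts came without a control or without day 14 replicate 1, which leaves a group with 1 library that is then assumed to vary like the others. Median-ratio and quantile scaling, a pseudocount of 0.1, the filter of 5 FPKM and the fit without a trend kept all 6 counts within 1.5 times. The causes were not tested.

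Lcn2 at day 2 passed under every alternative, at log2 changes of 6.70 to 7.92. The sign turned in 14 cases, none of a called gene. For Tfr2 at day 2 it was -0.13 with the trend removed, -0.068 without day 2 replicate 2 (up to 0.23 without replicate 4) and -0.10 without day 2 replicates 1 and 2. For day 14 against normal control Trf was at -0.40 under quantile scaling and -0.25 without day 14 replicate 2 (up to 1.13 without replicate 1), Fth1 at 0.30 without day 14 replicate 1 (down to -0.59 without replicate 2), and Cp at -0.35 under quantile scaling, -0.19 without day 14 replicate 2 (up to 0.29 without replicate 1) and -0.09 without normal control replicate 1. For day 14 against day 2 Hamp was at -0.036 under quantile scaling, -0.11 without day 2 replicate 4 (up to 0.70 without replicate 2) and -0.53 without day 2 replicates 3 and 4, Tfrc at 0.035 without day 14 replicate 1 (down to -0.73 without replicate 2) and Tfr2 at -0.032 without day 2 replicates 3 and 4. No paired analysis was possible because the groups compared share fewer than 2 numbers in their titles. The depth of the libraries is unknown, and genes near 1 FPKM, such as Bmp6, are the least certain.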

Other observations

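Assembly of iron-sulfur clusters, the other large use of iron beside haem, was covered by 20 genes, all tested. Nubp1, a scaffold factor of cytosolic clusters, had 23.6, 24.2, 29.4 and 23.7 FPKM at day 2, 7.03 and 7.87 FPKM at day 14 and 11.2 and 14.1 FPKM in normal control, so that day 2 lay above the controls and day 14 below them. It rose at day 2 (log2 change 0.95 ± 0.20; limma adjusted p = 0.0165) and was lower at day 14 than at day 2 (log2 change -1.63 ± 0.20; limma adjusted p = 0.00449). The day 2 call was lost without either control (limma adjusted p = 0.19 and 0.12) and with the trend of length and GC removed (limma adjusted p = 0.07), and that for day 14 against day 2 without day 14 replicate 1 (limma adjusted p = 0.061).

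No gene of this list was called by limma for day 14 against normal control, beside 9.79% of all genes. There 10 had an unadjusted p under 0.05, beside 29.8% of all genes. Fdx1, a ferredoxin of mitochondria, had 53.7, 56.8, 66.6 and 58.7 FPKM at day 2, 111 and 252 FPKM at day 14 and 101 and 82.7 FPKM in normal control. It was higher at day 14 than at day 2 (log2 change 1.495 ± 0.33; limma adjusted p = 0.0214), a call lost without either day 14 library (limma adjusted p = 0.052 and 0.069).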
